A study of Mus musculus with 8 samples.

Results

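Regions with decreased H3K27ac in Nrip1 KO myotubes that lay between genes were examined on 15 autosomes and the X chromosome. A region was a member of this set when it stood in the authors' list of decreased regions, when its centre was more than 1 kb from every annotated transcript start, and when that centre was outside every gene body. Chromosomes 4, 7, 10 and 16 were left out by the rule. Of 5445 decreased regions on the 16 chromosomes, 1827 met the rule (33.6%, 95% Wilson interval 32.3 to 34.8, counting error only), out of 11180 differential regions of both directions in the whole series. Members were thus chosen by the 2-fold call the authors made on H3K27ac peak intensity and by position, and neither is a result here.

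The libraries came from primary myotubes, the fused muscle cells that satellite cells form in culture, and were labelled Nrip1KO or Ctrl. Each genotype had 2 H3K27ac libraries and 2 libraries of the IgG control. Cells of both genotypes had been expanded in medium with EGF, insulin and dexamethasone and then differentiated for 4 days in horse serum. The labels do not name the knockout line. The paper names it as the striated muscle line, in which the MCK promoter drives Cre in heart and skeletal muscle. The age and the sex of the mice are not given in the labels, and satellite cells of gastrocnemius muscle that have been passaged and fused in a dish model muscle without its nerve or vessels. For each region only its position was deposited. How large each change was, how the 2 replicates varied, how deep the libraries were and how high the IgG signal was are unknown here, and the labelled cell type could not be checked against marker levels. Counts, medians and intervals below describe the list, and none of them is a test between genotypes.

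H3K27ac is the acetylation of lysine 27 on histone H3. It is found at active promoters and at active enhancers, the latter often far from any gene, and it is placed by the acetyltransferases p300 and CBP. Distal enhancers are bound by cell type factors together with broadly expressed ones. In muscle these include MyoD and myogenin, which bind E-boxes, and the AP-1, TEAD and MEF2 families. The nearest gene of an enhancer is not always the gene it acts on. Both flanking genes are therefore given for the fullest intervals below, whereas the gene lists go mainly by the nearest start. RIP140, encoded by Nrip1, is a coregulator that nuclear receptors recruit.

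For 8 genes named below, a stretch from the centre of a member nearest to each is shown, because these stretches carry the 2 motifs that the sequence results turn on. Capitals mark the palindromic E-box CAGCTG and the AP-1 site, TGACTCA or TGAGTCA. Coordinates and the plus strand are those of GRCm38.p6 (mm10), and the stretches were picked after the matches were seen, as the 120 bases with the most matches within the central 500 bp of the members of each gene.
Meis1, E-box, chr11:19107174-19107293: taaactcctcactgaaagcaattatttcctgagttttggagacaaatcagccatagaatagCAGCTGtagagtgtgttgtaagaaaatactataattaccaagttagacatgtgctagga
Gm826, 2 E-boxes, chr2:159826727-159826846: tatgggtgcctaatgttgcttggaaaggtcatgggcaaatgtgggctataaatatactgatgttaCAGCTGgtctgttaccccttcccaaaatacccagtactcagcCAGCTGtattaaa
Cxcr4, E-box, chr1:128544257-128544376: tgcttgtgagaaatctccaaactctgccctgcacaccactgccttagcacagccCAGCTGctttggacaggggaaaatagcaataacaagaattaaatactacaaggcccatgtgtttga
Mylk2, E-box, chr2:152907655-152907774: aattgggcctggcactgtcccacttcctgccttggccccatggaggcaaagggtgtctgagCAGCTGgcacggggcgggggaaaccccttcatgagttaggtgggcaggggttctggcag
Vegfa, E-box, chr17:45889465-45889584: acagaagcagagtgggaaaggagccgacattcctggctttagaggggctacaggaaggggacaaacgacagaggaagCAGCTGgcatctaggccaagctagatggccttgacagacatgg
Maf, AP-1, chr8:115814038-115814157: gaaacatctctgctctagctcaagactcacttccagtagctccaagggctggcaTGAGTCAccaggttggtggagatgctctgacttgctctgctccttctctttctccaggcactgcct
Tgfb2, 2 AP-1, chr1:186454822-186454941: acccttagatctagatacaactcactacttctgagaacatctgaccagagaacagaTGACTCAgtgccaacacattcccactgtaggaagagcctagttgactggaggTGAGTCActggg
Socs3, AP-1, chr11:117963811-117963930: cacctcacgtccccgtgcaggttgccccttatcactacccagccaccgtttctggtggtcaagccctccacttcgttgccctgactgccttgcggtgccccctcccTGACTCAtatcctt

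The stretches differ in base composition. The Meis1 stretch is 35.8% GC and the Mylk2 stretch 63.3%, although both carry 1 E-box. The centres of the regions they come from lie 88439 bp and 3447 bp from the start of their gene, and the Mylk2 region is wide enough to reach that start.

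Members covered 2.01 Mb in all. Their median width was 806 bp (95% order-statistic interval 788 to 837), compared with 686 bp for 905 increased intergenic regions and 870 bp for 2797 decreased intronic regions of the same chromosomes. The narrowest width in the list, 501 bp, was held by 372 members (20.4%) and by 34.4% of the increased intergenic regions. Widths of 3 kb or more were found in 68 members (3.72%) and in 14 increased regions (1.55%). The median width of members was larger than that of increased regions on 14 of 16 chromosomes.

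The widest members lay near genes of several kinds. A region of 8142 bp, joined from 3 peaks, stood 21558 bp upstream of Dlx3, a homeobox gene, in the interval between Itga3 and Dlx3 (chr11:95094491-95102632). A region of 8044 bp had its centre 3447 bp upstream of the start of Mylk2, the skeletal muscle myosin light chain kinase (chr2:152903884-152911927). Its right edge ran across that start and 576 bp into the gene. Membership goes by the centre, and 2 of the 1827 members contained a protein-coding start within their span. The Mylk2 region opened a run of 4 members over 26940 bp. The third in width, 7097 bp, lay between Cebpb, a bZIP transcription factor, and Ptpn1, the phosphatase that dephosphorylates the insulin receptor (chr2:167755992-167763088). Its nearest protein-coding start was that of Tmem189, 69718 bp away. Those near Ccny and Gm7361 spanned 6713 and 6604 bp.

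Most members were far from protein-coding genes, though nearer than sequence of this kind is in general. The median distance from the centre to the nearest protein-coding start was 39.2 kb (interval 35.8 to 42.1), with quartiles of 13.0 and 118 kb. For increased intergenic regions it was 71.6 kb (61.6 to 80.2). For all positions that met the same rule, sampled every 2.5 kb over 1055 Mb, it was 114 kb. Within 10 kb of a start lay 358 members, and beyond 500 kb lay 81 (4.43%), compared with 7.73% of increased regions and 17.4% of positions. The median for members was below that for increased regions on 14 of 16 chromosomes. The nearest start was approached from its upstream side by 60.1% of members (57.8 to 62.3), by 58.6% of increased regions and by 58.7% of positions. The intervals of members and increased regions overlap.

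**Figure D1:**
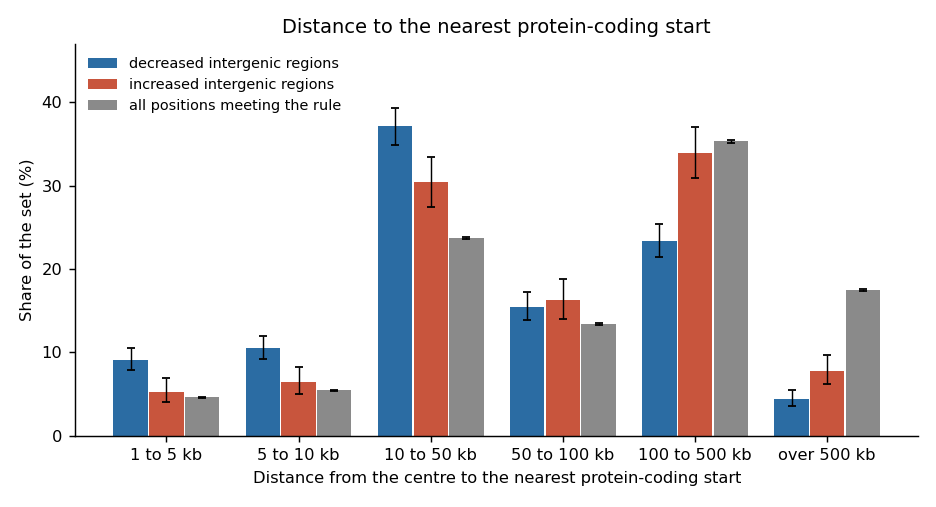
Share of each set, in percent, by the distance from the centre to the nearest protein-coding start, with 95% Wilson intervals as bars on the columns (counting error only). The bins differ in width. Decreased regions were most frequent in the 10 to 50 kb bin (37.1%, positions 23.7%). They were few beyond 500 kb (4.43%), where 17.4% of all positions that met the rule lay. At 1 to 5 kb the shares were 9.09% of decreased regions and 4.64% of positions.

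The members closest to a protein-coding start were those at Klrb1a (1028 bp), Gm10073 (1049 bp) and Irs1 (1069 bp). Irs1 encodes the adaptor that couples the insulin receptor to phosphatidylinositol 3-kinase, and its member spanned 1463 bp (chr1:82291754-82293216). The farthest were those at Flrt2 (1636939 bp), Cntnap5a (1608053 bp) and Tenm2 (1435216 bp), adhesion genes that stand beside large gene deserts. At the limit of the rule, the 5 members with the smallest distance to a start of any gene lay 1027 to 1049 bp away, nearest to Gm34081, Klrb1a, Gm36120, Gm11951 and Gm10073. The 5 decreased regions just beyond the limit lay 865 to 949 bp away, at Gm43769, Gm11730, Gm37233, Tvp23bos and Tor4a. In all, 82 decreased regions outside gene bodies were within 1 kb of a start, and 80 members were within 2 kb of one. A gene body was touched by an edge of 40 members.

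Members were spread over all 16 chromosomes at unequal density. On autosomes other than 14, the density was 1.13 to 3.83 members per Mb of qualifying sequence, highest on chromosome 11. Chromosome 14 had 24 members (0.382 per Mb) and the X chromosome 31 (0.283 per Mb). Increased intergenic regions were also sparse there, at 0.350 and 0.301 per Mb. Decreased regions made up 66.9% of the 2732 intergenic differential regions (65.1 to 68.6), compared with 72.2% of intronic regions. They exceeded 50% on 13 of 16 chromosomes, from 43.0% on chromosome 18 (34.9 to 51.4) to 85.8% on chromosome 11 (80.9 to 89.7).

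**Figure D2:**
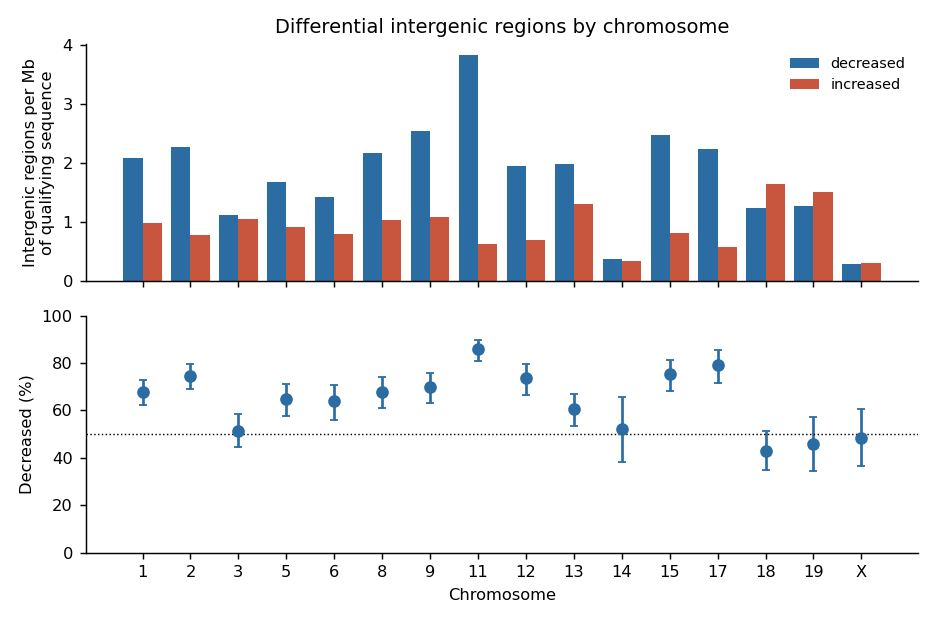
Top, intergenic regions per Mb of qualifying sequence on each chromosome, decreased and increased. Bottom, the decreased share of intergenic differential regions with 95% Wilson intervals and a dotted line at 50%, running from 43.0% on chromosome 18 to 85.8% on chromosome 11.

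Members gathered between particular pairs of genes. Of 14558 intervals between neighbouring protein-coding genes, 1127 held a member. Of these, 780 held 1 member and 153 held at least 3, and the latter contained 659 members (36.1%). An increased intergenic region was also present in 166 of the 1127 intervals (14.7%), and in 637 of all 14558 intervals (4.38%). Longer intervals have more room for regions of either direction, and these shares were not compared at equal length. The interval around a member had a median length of 153 kb, compared with 328 kb for increased regions and 537 kb for qualifying positions.

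The interval with the most members, 18 over 905 kb on chromosome 11, separated Meis1 and Spred2. Meis1 encodes a homeodomain cofactor of HOX and PBX proteins, and Spred2 an inhibitor of RAS and MAP kinase signalling. Of the 18 members, 10 were nearest to the Meis1 start, at 88439 to 452446 bp, and 8 to that of Spred2, at 164430 to 390942 bp. No increased region lay between them. An E-box was present in the centre of 5 of the 18. Between Nox3 and Arid1b, a subunit gene of the BAF chromatin remodelling complex, lay 16 members in 1298 kb of chromosome 17. All 11 of those nearest to Arid1b were upstream of it, at 218760 to 587385 bp. Of intronic regions, which may lie in another gene, 4 decreased and 1 increased were nearest to the Arid1b start. For Meis1 it was 1 increased intronic region.

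Between Dhx35 and Gm826 on chromosome 2 lay 15 members in 1453 kb. They spanned 399.8 kb, with 7 members in 34925 bp and 5 in 17741 bp, and the longest of them spanned 5254 bp. The nearest protein-coding start was that of Gm826, a predicted gene. Maf, which encodes a bZIP transcription factor, was nearest to 11 members on chromosome 8, 8 of them upstream at 61899 to 252701 bp and 3 downstream at 147734 to 160422 bp. No increased region was nearest to Maf.

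Igfbp3, which encodes a binding protein of insulin-like growth factors, and Tns3, a tensin gene of focal adhesions, flanked 12 members and 1 increased region over 1218 kb of chromosome 11. The member closest to Igfbp3 was 2659 bp wide and stood 3465 bp upstream of its start. The shortest of the leading intervals, 136 kb between the predicted genes Gm10220 and Gm7361 on chromosome 5, held 11 members, or 81.5 per Mb of its qualifying sequence. With members joined across the gap that is usually used to join enhancers into super-enhancers, 9 of these formed 1 locus of 55355 bp, the one with the most members. The share of 50-base words that occur elsewhere in the genome was 0 to 14.2% in each of the 11 members.

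Between Cmpk2 and Sox11 on chromosome 12 lay 10 members, 4 of them within 7108 bp next to Cmpk2. Sox11 encodes a transcription factor of progenitor cells. On the other side of Sox11, before Dcdc2c, were 7 members and 5 increased regions. The increased regions lay 1.34 to 208 kb upstream of Sox11, and the members on that side began further out, at 524127 bp from its start. Camk1g and Plxna2, a semaphorin receptor gene, flanked 9 members and 1 increased region. Kcnk1 and Slc35f3 flanked 8 members in 268 kb (32.7 per Mb).

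**Figure D3:**
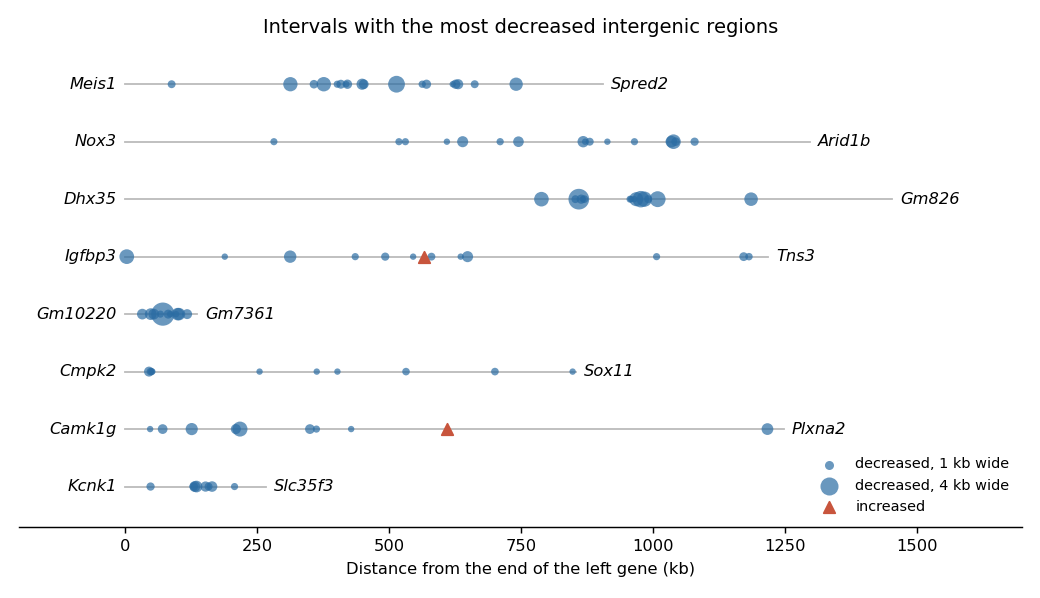
The 8 intervals between protein-coding genes with the most members, each drawn to scale in kb from the end of the left gene. Circles are decreased regions, with area proportional to width, and triangles are increased regions, of which 2 are shown beside 99 decreased ones. The interval between Maf and Dynlrb2 also held 8 members, over fewer bases, and is not drawn.

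By the nearest protein-coding start, members were assigned to 1227 of 16698 protein-coding genes on these chromosomes (7.35%), and 2069 genes flanked one (12.4%). A single member was assigned to 903 genes, and 5 or more to 33. Of the 1227 genes, 139 were also nearest to an increased intergenic region (11.3%), compared with 679 of all 16698 genes (4.07%). A decreased region in an intron of any gene was nearest to the start of 343 of them (28.0%, all genes 10.5%). Decreased promoter regions, within 1 kb of a start of any gene, were nearest to 119 (9.70%, all genes 3.47%). Genes with more intergenic sequence have more room for a member, and these shares were not compared at equal room. By the same nearest-start assignment, no other decreased region was found for 820 genes. Cxcr4, the receptor of the chemokine CXCL12, was nearest to 10 members, 7 of them downstream between Cxcr4 and Dars at 4607 to 81049 bp. Its ligand gene Cxcl12 was nearest to 5, at 33425 to 306218 bp. No increased region was nearest to either gene.

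Other genes with many members were Spred2 and Camk1g with 8 each, and Slc35f3, Igfbp3, Gadd45g, Tns3, Cmpk2 and Gm11042 with 7 each. Of these, Camk1g and Igfbp3 were each nearest to 1 increased region and the others to none. Decreased regions in an intron of any gene were also nearest to the starts of Tns3 (4), Spred2 (2), Gadd45g (2) and Cmpk2 (1). Cmpk2 was also nearest to 1 decreased region of the promoter class. Gadd45g encodes a stress-induced regulator of cell cycle and MAP kinase signalling, and Camk1g a calcium and calmodulin dependent kinase. By width, the 372 narrowest members, up to 600 bp, had a median distance of 39.2 kb, the E-box CAGCTG in 35.0% and an AP-1 site in 12.9%. The 532 members above 600 and up to 800 bp had the E-box in 42.1% and an AP-1 site in 14.5%. For the 406 members above 800 and up to 1200 bp these shares were 37.7% and 17.2%. The 517 wider members had a median distance of 38.7 kb and the 2 motifs in 37.7% and 14.5%.

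The 15 gene lists were then read against these shares. They held 664 entries of 651 different genes, so some genes counted in more than 1 list. Lists were written from known roles, with results of these data already known, and genes with long intergenic neighbourhoods have more room for a region, so the density per Mb of that neighbourhood is given too. It was 1.73 members and 0.858 increased regions per Mb over all protein-coding genes, of which 7.35% were nearest to a member and 4.07% to an increased region. Increased regions in these lists are the intergenic ones unless another class is named.

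Insulin, IGF and atrophy signalling had the highest share of genes nearest to a member among the lists, with 10 of 25 genes nearest to a member (40%, against 7.35% of all genes) and 2 nearest to an increased region. By flanking genes the share was also 40%, and it was higher for limb and mesenchyme factors (26 of 51 genes), guidance and adhesion (43.9%) and AP-1 genes (41.2%). Its 20 members came to 4.01 per Mb, below the densities of the AP-1, sarcomere, cytokine and angiogenesis lists. The fibroblast and matrix list had about the same density of members. Increased regions of the insulin list came to 0.60 per Mb, below the 0.858 of all genes. The genes were Igfbp3 (7 members), Tbc1d1 (3), which encodes a Rab GTPase-activating protein of glucose uptake, Pik3r1 (2), the regulatory subunit of phosphatidylinositol 3-kinase, and Foxo1 (2), the transcription factor that insulin signalling keeps out of the nucleus, with 1 member each at Irs1, Grb10, Pfkfb3, Hk2, Akt1 and Igfbp5. The Akt1 member was 501 bp wide and 4286 bp from the start. Igfbp3 held 7 of the 20 members.

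Among secreted signals, 11 of 43 TGF-β and BMP genes (25.6%) were nearest to 23 members, 3.34 per Mb. For increased regions it was 6 genes and 12 regions, 1.74 per Mb. Tgfb2 had 6 members, 5 of them downstream at 43412 to 205354 bp and 1 upstream at 11124 bp. Bmp2 also had 6, at 4910 to 488226 bp, and 1 increased region. Bmp7 and Smad3 had 2 each. Inhba, the activin A subunit gene, had none, and was nearest to 6 increased regions. Of 49 Wnt genes, 5 (10.2%) were nearest to 10 members, 2.53 per Mb, and 6 (12.2%) to increased regions, 1.77 per Mb. Ctnnb1, the gene of β-catenin, led with 4 members at 107040 to 165066 bp. Among angiogenesis and hypoxia genes, 6 of 34 (17.6%) were nearest to 14 members, 4.07 per Mb. For increased regions it was 8 genes (23.5%), 2.32 per Mb. In each list of this paragraph both densities were above those of all genes. Vegfa, the main endothelial growth factor gene, had 4 members, all downstream at 95168 to 131657 bp, and no increased region.

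Of the cytokine, STAT and NF-κB list, 5 of 32 genes (15.6%) were nearest to 11 members, 4.39 per Mb, and none to an increased intergenic region. Besides Cxcl12 these were Socs3, a feedback inhibitor of cytokine receptors, with 3 members at 5320 to 43570 bp, and Lif and its receptor gene Lifr with 1 each. The Lifr member spanned 5409 bp. Nfkb1 had 1. Of 17 AP-1 and related bZIP genes, 4 (23.5%) were nearest to 15 members, and none to an increased intergenic region. The density was 11.9 members per Mb, and Maf held 11 of the 15. Fos had 2, at 9200 and 48474 bp, and Mafk and Batf had 1 each.

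Limb and mesenchyme transcription factors had 15 of 51 genes nearest to a member (29.4%) and 11 nearest to an increased region (21.6%). Their density of 2.31 members per Mb was closer to the 1.73 per Mb of all genes than the share of genes was. Increased regions came to 1.36 per Mb. Meis1 had 10 members, Sox4 3 and Sox11 5, and Sox11 was also nearest to 5 increased regions. Sox9 was nearest to no member, though it flanked 1, and was nearest to 5 increased regions. Guidance and adhesion genes showed the same contrast between measures, with 13 of 41 genes (31.7%) but 1.12 members per Mb. Their increased regions came to 0.786 per Mb. Efnb1, an ephrin gene on the X chromosome, and Cdh13 had 3 members each.

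Genes of the muscle cell itself gave mixed values. Among myogenic regulators, 6 of 30 (20.0%) were nearest to 8 members and 5 to 10 increased regions. The density of 1.77 members per Mb was about that of all genes, whereas increased regions came to 2.21 per Mb. The Notch ligand gene Dll1 had 3 members, while Mef2c had none and 4 increased regions. Mef2c flanked 2 members that were nearest to another start. Of 44 sarcomere genes, 4 (9.09%) were nearest to a member and 6 (13.6%) to an increased region, with 6 regions and 7.02 per Mb in each direction. Tpm1 and Actn2, for tropomyosin and α-actinin, had 2 members each. Neuromuscular junction and synaptic genes had 3 of 28 (10.7%) with members, 3.17 per Mb, and as many with increased regions, 1.98 per Mb. Of their 8 members, 4 were those of Ctnnb1, counted in the Wnt list too, and 3 were at Ntf3. Unc13c, a synaptic vesicle priming gene of this list, had 1 member of 3039 bp at 56136 bp upstream of its start (chr9:74023583-74026621). Its start was also the nearest to 1 increased intronic region. The paper places Unc13c among genes near increased H3K27ac peaks and reports higher expression in KO myotubes. Wnt16, the paper's candidate effector, had no member and 1 increased region. Between Rsl24d1 and Unc13c lay 1 member of 640 bp, nearest to Rsl24d1. Of 40 fibroblast and matrix genes, listed for cells that such cultures may also hold, 8 (20.0%) were nearest to a member. The list had 4.02 members and 2.76 increased regions per Mb. An increased region was nearest to 7 (17.5%), and 2 genes had both. Tcf4, an E-protein gene not specific to fibroblasts, had 4 members and 3 increased regions. Thbs1 and Col12a1 had 3 members each, and Col12a1 also 1 increased region. Fn1 had 2 members and Col6a3, Col1a1, Timp2 and Thy1 had 1 each, with no increased region nearest to them. Col3a1 had no member and 3 increased regions. Col1a2, Postn, Col11a1 and Thbs2 had no member and 1 increased region each. Without levels in each library, the part of such cells in the list was not tested.

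Nuclear receptor and PGC-1 genes, the partners of RIP140, had 5 of 40 nearest to a member, at 1.25 per Mb. An increased region was nearest to 4 (10.0%), at 0.835 per Mb. Ppargc1a (ENSMUSG00000029167.13), the gene of PGC-1α, had 4 members covering 8700 bp, all downstream at 203133 to 512616 bp. The widest spanned 3815 bp (chr5:51039348-51043162) and its neighbour 3206 bp (chr5:51044553-51047758). Ppargc1a was also nearest to 2 increased regions. Rxra had 2 members and Ppara, Nr4a2 and Nr5a2 had 1 each. Of 34 lipid and mitochondrial genes, 4 (11.8%) had 1 member each, 1.71 per Mb, namely Pdk4, Acsl3, Acsl4 and Nrf1. None of the 34 was nearest to an increased intergenic region, while Nrf1 was nearest to 1 increased intronic region and no decreased one. Hippo and TEAD genes had 1 of 21 (4.76%), with 2 members at Fat4, 0.952 per Mb. Of these genes, 2 were nearest to an increased region, at the same density.

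Members were richer in GC than increased regions in the same kind of position. The median GC content of the central 500 bp was 47.2% (46.8 to 47.4) in members, 42.4% (42.0 to 43.0) in increased intergenic regions and 40.4% in qualifying positions. Members had the higher median on 16 of 16 chromosomes, by 2.30 to 8.20 percentage points. The contrast was also present within intervals. In the 166 intervals that held both directions, the median of the members was the higher in 121 and the lower in 43, with a median difference of 2.45 points (1.70 to 3.80). The surroundings differed as well, with 44.9% at 2 to 3 kb from the centre of members and 41.7% around increased regions. Decreased intronic regions had a median of 48% and increased intronic ones 42%, so the contrast was not limited to sequence between genes. The share of repeat-masked sequence was 13.2% in members and 13.4% in increased regions at the median.

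With rising GC content, the decreased share of intergenic regions went from 36.0% (31.7 to 40.4) at up to 40% GC to 58.7%, 75.8% and 87.4% (84.5 to 89.8) above 50% GC. It also went down with distance, from 77.2% (73.1 to 80.7) at 1 to 10 kb from a protein-coding start to 54.6% (50.3 to 58.9) beyond 200 kb. GC content and distance moved together: members at 1 to 10 kb had a median GC content of 48.6% and those beyond 200 kb of 43.6%. Above 50% GC, the decreased share was 86.8 to 91.3% at all 4 distances. At up to 40% GC it was 30.8 to 39.8%, with overlapping intervals. Between 45 and 50% GC it still went from 81.8% (75.7 to 86.6) near starts to 66.9% (58.2 to 74.7) beyond 200 kb. Intronic regions went from 35.2% to 92.2% over the same range of GC content.

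**Figure D4:**
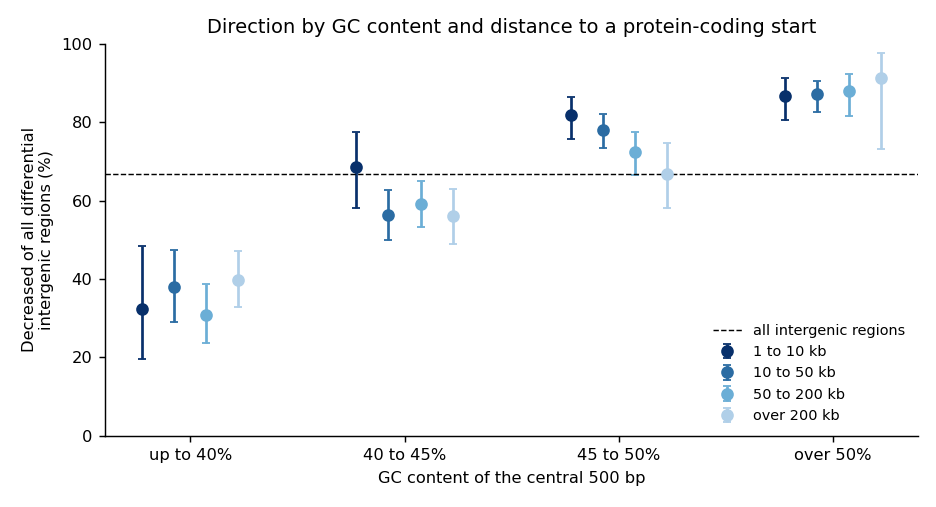
Decreased share of intergenic differential regions, in percent, by GC content of the central 500 bp and by distance to the nearest protein-coding start (shades), with 95% Wilson intervals and a dashed line at the 66.9% of all intergenic regions. The share climbed from 30.8 to 39.8% in the lowest GC class to 86.8 to 91.3% in the highest at every distance.

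The motifs of muscle and growth factors were counted in the central 500 bp on both strands. The E-box CAGCTG, the form that MyoD and myogenin prefer, was present in 702 members (38.4%, 36.2 to 40.7). It was present in 31.2% of increased regions (28.2 to 34.3) and in 15.3% of qualifying positions, or 23.4% of positions weighted to the GC content of members. The difference from increased regions was no longer seen at equal GC content. In bins of 2.5 percentage points that held at least 20 increased regions, which covered 92.5% of members, it was present in 37.2% of members (35.0 to 39.6) and 37.0% of increased regions weighted alike. Around the centre of members, E-box matches numbered 0.993 per kb, compared with 0.526 per kb at 2 to 3 kb, a ratio of 1.89. The ratio was 1.92 in increased regions. The form CAGGTG showed no such peak, with a ratio of 0.866.

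AP-1, TEAD and MEF2 motifs were found in a lower share of members than of increased regions, also at equal GC content. An AP-1 site, TGACTCA or TGAGTCA, was found in 270 members (14.8%, 13.2 to 16.5) and 19.3% of increased regions (16.9 to 22.0). At equal GC content the values were 14.9% and 18.9%, and members had the lower share on 13 of 16 chromosomes. Both exceeded the 8.12% of GC-weighted positions. The TEAD site, ACATTCC or GCATTCC, was found in 13.9% of members and 18.2% of increased regions, or 14.1% and 19.5% at equal GC content. For MEF2 the shares were 5.42% and 11.7%, and 5.63% and 8.29% at equal GC content. GC-weighted positions held the MEF2 motif in 5.79%. The homeodomain core TAATTA was found in 9.31% of members and 15.9% of increased regions, and in 9.47% (8.17 to 11.0) and 10.8% at equal GC content, where the value for increased regions was within the interval of the members. Matches do not show binding, and E-boxes and AP-1 sites were counted independently of each other.

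For receptors that RIP140 is known to bind, the PPAR direct repeat with up to 2 mismatches was found in 74 members (4.05%, 3.24 to 5.06) and in 2.32% of increased regions (1.52 to 3.52). At equal GC content the values were 4.14% and 2.89%, and in GC-weighted positions 2.24%. Decreased intronic regions held the repeat in 3.15% (2.56 to 3.86). The extended ERR site TCAAGGTCA was found in 29 members (1.59%, 1.11 to 2.27) and 1.44% of increased regions. The RUNX site, TGTGGTT or TGCGGTT, was found in 15.1% of members and 14.4% of increased regions. Among the other motifs, the STAT site TTCCNGGAA was found in 2.68% of members, 1.66% of increased regions and 1.68% of decreased intronic regions.

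**Figure D5:**
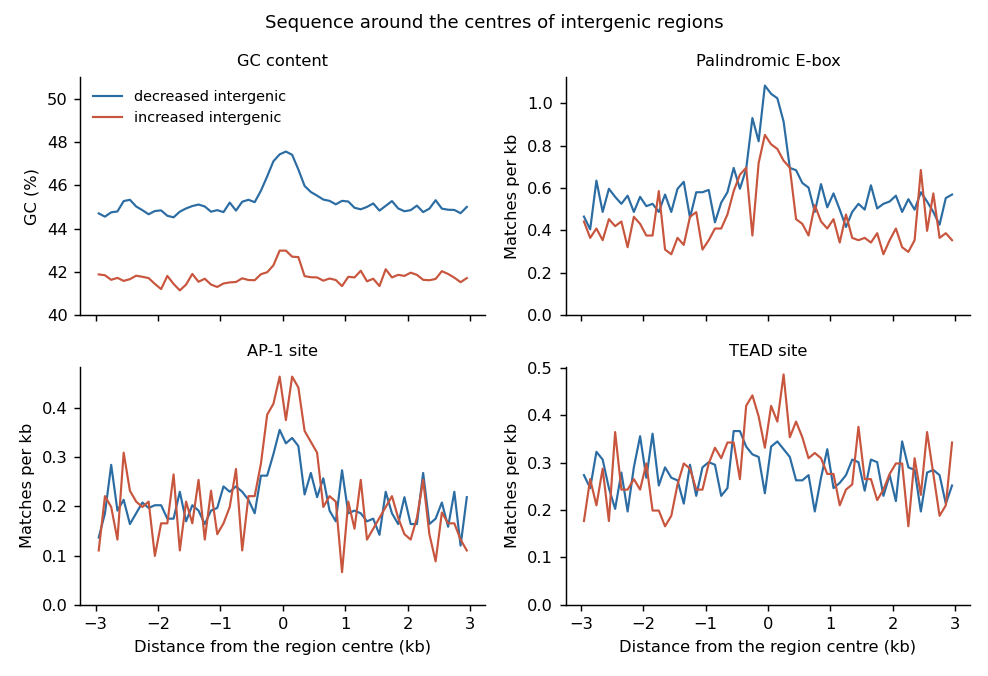
GC content in percent and motif matches per kb, in bins of 100 bp, against the distance from the region centre in kb, for decreased and increased intergenic regions. The GC axis does not start at 0. The palindromic E-box peaked at the centre of both sets (ratios to the flanks of 1.89 and 1.92), while AP-1 and TEAD peaks were lower in decreased regions (1.73 and 1.14) than in increased ones (2.46 and 1.49).

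The spacing of members was described by their nearest neighbours. Another member was within 5 kb of 15.1% of members and within 50 kb of 43.1%, while 7.85% and 23.9% of increased intergenic regions had another increased one within these distances. Members were also the denser set, at 1.73 per Mb against 0.858, and the shares were not compared at equal density. At the gap usually used for super-enhancers, which lies between them, the shares were 24.9% (22.9 to 26.9) and 12.4%. Joined at that gap, members formed 1567 loci, of which 46 held 3 or more. The differential region nearest to a member was a decreased one in 82.4% of cases (80.6 to 84.1), in 95.3% of the 493 cases within 10 kb and in 71.0% of the 696 cases beyond 50 kb. Over all 7803 differential regions of these chromosomes, 69.8% were decreased. Among intergenic regions the decreased share ran from 43.0% to 85.8% by chromosome, and the neighbour shares were not set against the share of each chromosome. Neighbouring members are not independent, and the intervals given with shares, which count each region singly, are too narrow. Sequence repeated elsewhere in the genome made up over 50% of the 50-base words in 15 members (0.821%), compared with 12.6% of qualifying positions.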

How the data were processed

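Per the labels and the study's methods, the authors aligned paired CUT&RUN reads to mm10 with BWA-MEM2 2.2.1, called broad peaks with HOMER 4.11 and listed regions with a 2-fold or larger difference in peak intensity. How replicates and IgG libraries entered the calls, and whether peaks were called on pooled samples, is not stated. Different H3K27ac antibodies are named in the labels and in the methods. The deposited score is constant and was not used, so no region has a value of its own and depth is unknown.

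Regions were classed by their centre against GENCODE M21 on GRCm38.p6, whose chromosome lengths contain every region used. Coordinates are counted from 1. Centres within 1 kb of a start were promoter, and the rest exonic, intronic or intergenic. Background positions were all those meeting the positional rule, sampled every 2.5 kb (422027). GC content, repeat masking and 21 consensus motifs were read in the central 500 bp, with Wilson or order-statistic 95% intervals. No comparison across samples was possible, and no test was run. Shares at equal GC content weight each bin as in the members.

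The members, the 15 gene lists and the 4 chromosomes left out were chosen with earlier results of these data known. Named genes were those flanking the 8 fullest intervals, nearest to the 5 widest, closest and farthest members or to the edge of the rule, leading each list, or named by the study. The other genes named from the lists, Dcdc2c, Cxcr4 as the gene of 10 members, and the printed stretches were added after their values were seen. Functions were checked on 3000 simulated regions and 400 simulated windows, with 0 wrong. Python 3.11.15, numpy 2.4.6, pandas 2.3.3, scipy 1.17.1 and matplotlib 3.10.9 were used.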

Additional observations from a re-analysis of the deposited data

How the results depend on the processing

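No paired analysis was possible because the lists pool the replicates and hold no column per library, and for the same reason no replicate could be left out. The 9 values of the report were recomputed under other settings, 87 times in all. In 65 cases the value stayed within the interval of the reported one (counts, within 1.5 times), and in 22 it did not. A promoter limit of 2.5 kb gave 11.5% of protein-coding genes flanking a member, and a limit of 5 kb gave 10.0%, a median distance of 48.4 kb and an upstream share of 57.4%. Protein-coding genes alone gave 13.8% of genes. A minimum width of 1 kb left 677 members, of which 15.7% lay within the joining gap of another, 5.90% of genes flanking, a decreased share of 74.6% and an upstream share of 57.6%. With all chromosomes 1 to 19 and X, these were 27.6% near another, 11.8% of genes and 63.0% decreased. In the central 200 bp, GC content was 47.5%, the E-box share 17.7% and the AP-1 share 6.35%, and in the whole region the motif shares were 56.2% and 25.9%, since the length searched differs. Joining across 5 or 50 kb gave 15.1% and 43.1% near another. The nearest start of any gene was at a median of 15.6 kb. Chosen after seeing the data, the widest member of each interval gave a median distance of 25.2 kb, and leaving out members of mostly repeated 50-base words moved no value out of its interval. The unknown depth of the libraries limits what any of these values can show.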
